A study of Arabidopsis thaliana with 8 samples.

Results

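ENAP1 regions present in both air and ethylene were the 2659 air regions on chromosomes 1 to 5 that overlapped a region of the ethylene list by at least 1 bp. They made up 58.7% of the 4526 air regions (95% interval 57.3 to 60.2). On the ethylene side 2655 of 3293 regions, or 80.6% (79.2 to 82.0), took part in such an overlap. These regions were chosen by the overlap of their called start and end positions, which depend on the peak caller's p-values in both lists. Their strength, width and overlap are therefore given as a description. They are called kept regions here, beside 638 ethylene-only and 1867 air-only regions.

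Whole Arabidopsis thaliana seedlings were grown for 3 days in darkness at 24 °C. All were ein3 eil1 double mutants of the Col-0 ecotype, the controls included. The groups were ChIP and input after 4 h of 10 ppm ethylene in hydrocarbon-free air, and ChIP and input after 4 h of that air alone, with 2 samples each. The antibody was against green fluorescent protein, and the labels give neither the tagged construct nor its promoter. Separate cultures for the samples of a group are not stated. Each treatment has 1 joint list, so no value carries a replicate error, and enrichment in one list is on another scale than in the other.

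ENAP1 is a nuclear protein of the trihelix type that binds EIN2 and histones. In the ethylene pathway, receptors in the endoplasmic reticulum hold EIN2 in check through the kinase CTR1. When ethylene binds the receptors, a cleaved end of EIN2 enters the nucleus, where gene activation runs mainly through EIN3 and EIL1. Both of these factors are missing here, so the kept regions are places where ENAP1 was recorded with and without ethylene in their absence.

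The kept regions coincided closely. Of the 2659, 2618 formed pairs of 1 air and 1 ethylene region. The median overlap was 212 bp (interquartile range 178 to 257), and in 52.0% of pairs the shorter region lay wholly inside the longer. At least 50% of the shorter region was shared in 2655 of them. Kept regions covered 710 kb, or 63.3% of the length of the air list, and the bases common to both lists covered 605 kb. The summit, the base of highest signal, lay a median of 16 bp (interquartile range 7 to 29) from its partner. It was within 50 bp in 91.9% (90.8 to 92.9) and on the same base in 58 regions. The kept share differed little along the genome, from 57.1% on chromosomes 4 and 5 to 61.2% on chromosome 1.

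At the threshold of the rule, the smallest overlap was 45 bp, at NF-YB13, a gene of a nuclear factor Y subunit. There the ethylene region was chromosome 5, 7749140 to 7749318, with an enrichment of 2.26, and the air region 7748989 to 7749184, with an enrichment of 3.52. The next smallest overlaps were 63 bp near AT2G04540 and at TGA1, a bZIP factor gene, then 94 bp at POP4, which encodes a subunit of ribonuclease P, and 95 bp at VPS35B, a retromer gene. Just outside the rule, the nearest air-only regions lay 28 bp from an ethylene region at HSF4, 35 bp at PP2CG1, 45 bp at ATMPK8, 50 bp at AUG2 and 55 bp at AT2G45910. Their air enrichments were 3.82 to 4.99. Only 30 of 1867 air-only regions lay under 200 bp from an ethylene region.

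Strength in one list went with strength in the other, on each list's own scale. Kept regions had a median fold enrichment of 2.88 in ethylene (interquartile range 2.37 to 3.60) and 5.91 in air (4.84 to 7.60). Ethylene-only regions had a median of 2.79 and air-only regions 4.32. The ratio of ethylene to air enrichment was a median of 0.492 (0.394 to 0.587) and lay under 1 in 2642 of 2659 regions. Because the scaling of the lists differs, that ratio is no measure of ENAP1 loss. Across the 2659 regions, enrichment in ethylene and air had a Spearman rho of 0.54. The regions share neighbouring sequence, inputs and the peak caller's background, and are not independent.

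The signal at a summit was expressed in sequenced fragments. A kept summit had a median of 166 fragments in ethylene (interquartile range 127 to 208) and 54 in air (40 to 74), summed over both ChIP samples of the list. Ethylene-only summits had 97.5 and air-only summits 42. The peak caller compares pile-up and local background on a common scale, on which a fragment counts 0.602 in ethylene and 1 in air. On that scale the median pile-up of kept summits was 99.9 in ethylene and 54 in air. Their median local background was 31.2 in ethylene, where the lowest background was 15.1, and 7.66 in air, where it was 3.94. At ethylene-only summits it was 19.4 and at air-only summits 9.09. Kept summits thus stood on a higher background than ethylene-only summits in ethylene, and on a lower background than air-only summits in air. Pile-up at kept summits had a rho of 0.90 between ethylene and air and local background a rho of 0.85, both higher than that of enrichment. Ethylene background and air pile-up, which come from separate libraries, had a rho of 0.62.

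**Figure D1:**
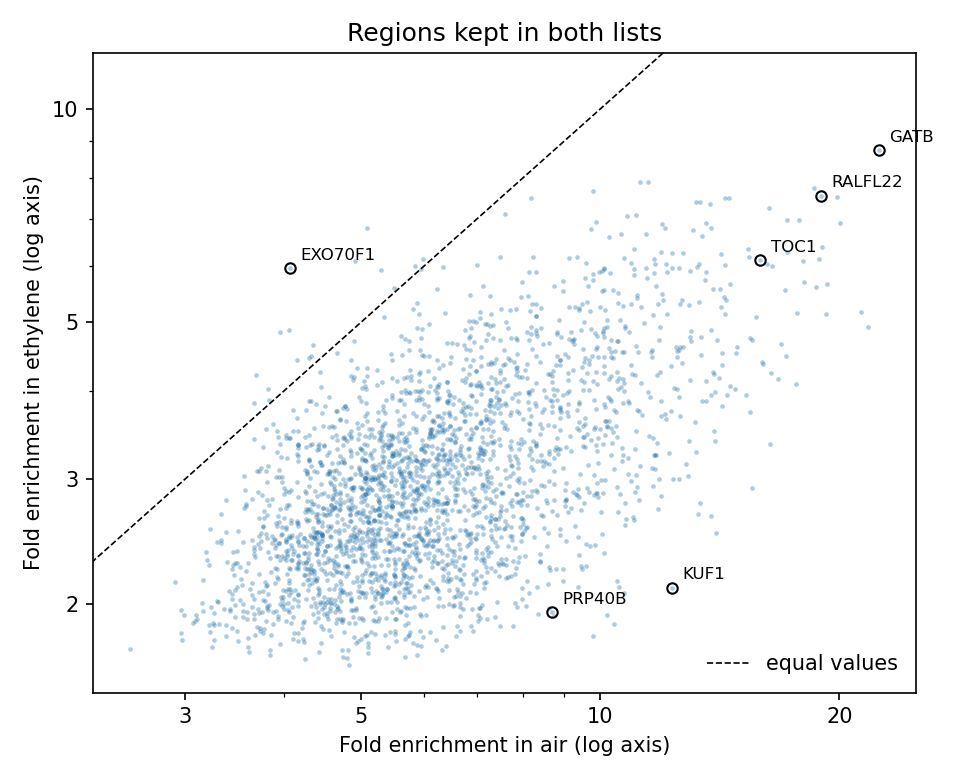
Fold enrichment of the 2659 kept regions in ethylene (vertical) against air (horizontal), both on log axes, with 1 point per air region and 6 named regions circled. Nearly all points, 2642, lie under the dashed line of equal values, and GATB stands at the upper right at 8.75 in ethylene and 22.4 in air.

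The 20 regions that stood highest in both lists lay at genes of varied function. GATB, a subunit gene of an organellar amidotransferase that makes charged glutamine tRNA, was first in both. Its ethylene region (chromosome 1, 17939901 to 17940312, TAIR10) had 260 fragments at the summit and its air region (17939887 to 17940207) had 118. Both summits were on the same base, 21 bp inside the gene. RALFL22, a gene of a small signalling peptide, had enrichments of 7.54 in ethylene and 18.97 in air. There were 269 and 145 fragments at the summits of these regions (chromosome 3, 1590499 to 1590808 and 1590330 to 1590800). The air summit lay 451 bp outside the gene.

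Other regions of this set were at genes that encode enzymes or organelle proteins. DCP2, which encodes the catalytic subunit of mRNA decapping, had enrichments of 6.24 in ethylene and 14.2 in air. PHB2, a mitochondrial prohibitin gene, had 6.14 in ethylene and 18.9 in air. BCA6, a beta carbonic anhydrase gene, had 6.11 in ethylene and 18.0 in air. TPS10, of the trehalose phosphate synthase family, had 7.26 in ethylene and 16.3 in air, with a summit 980 bp inside the gene. All 4 were within the first 50 ethylene ranks.

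Regulatory genes in the same set were TOC1, NAC083 and FRS2. TOC1, a core repressor of the circadian clock, had enrichments of 6.12 in ethylene and 15.9 in air with summits 1 bp apart. NAC083, a NAC-type transcription factor gene, had 7.34 in ethylene and 13.8 in air, with its summit 313 bp outside the gene and inside an annotated RNA gene, AT5G00390. FRS2, of the FAR1-related family, had 6.29 in ethylene and 17.2 in air, with its summit 935 bp outside. PRA1.F4, a prenylated RAB acceptor gene, had 6.18 in ethylene and 15.4 in air. The remaining 10 were at SCI1, APD1, AT1G19430, AT2G22426, AT5G38220, AT1G57600, AT1G76630, AT3G60110, AT1G08910 and AT4G13992.

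Ranks were far from identical. Of the 1070 kept regions in the highest quartile of the air list, 561, or 52.4% (49.4 to 55.5), were also in the highest quartile of the ethylene list. Another 135, or 12.6%, were in its lowest quartile. The reverse was the highest ethylene quartile for a region in the lowest air quartile. It occurred in 16 of the 296 kept regions of that air quartile, or 5.41% (3.12 to 8.63). The lowest quartile of both lists held 174.

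The 8 regions placed highest in ethylene relative to air had ethylene enrichments of 3.84 to 5.96 and air enrichments of 3.67 to 4.16. SNRK2.5, a kinase gene of the osmotic stress pathway, had 4.84 in ethylene at rank 192 and 3.95 in air at rank 3690. RAD51C, a gene of homologous recombination, had 3.84 in ethylene and 3.67 in air. At EXO70F1, an exocyst gene, 1 ethylene region (enrichment 5.96) spanned 2 air regions, with enrichments of 4.07 and 11.4, so its place in this group comes from the weaker of them. AT1G12730 and AT3G19900 were also in the group. The other 3 lay away from protein-coding genes, 1304 bp from AT3G60670, 2201 bp from AT2G05310 and 17525 bp from PMAT2.

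The 8 regions placed highest in air relative to ethylene had ethylene enrichments of 1.80 to 2.11 and air enrichments of 8.35 to 12.3. KUF1, an F-box gene named for its induction by karrikins, had 2.11 in ethylene with 226 fragments at the summit and 12.3 in air with 86. PRP40B, a gene of a splicing factor, had 1.95 in ethylene and 8.70 in air. LETM2, Cand7, AT3G50690, AT1G21695 and AT5G66240 were in the same group, as was a region 4156 bp from U1-70K. Local background, by which pile-up is divided in fold enrichment, moved with this ordering. It was 2.97 to 5.42 times the lowest value of the list in ethylene and 1.00 to 2.19 times in air for these 8. In the group placed higher in ethylene it was 1.06 to 1.78 times in ethylene and 1.70 to 2.43 times in air. Ranks are by fold enrichment, so background enters them by definition. What set its level at these regions was not tested.

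Widths were alike in both lists, with a median of 246 bp for kept regions in ethylene and in air, against 206.5 bp for ethylene-only and 194 bp for air-only regions. The widest kept air region, 1279 bp at AT4G18670, overlapped an ethylene region whose summit was 722 bp away, the longest distance found. Its air background was 6.19 times the lowest value of the list. The next widest were at AT4G38930, AT3G54363, ATL43, a RING-type ubiquitin ligase gene, and AT1G61170, with widths of 789 to 1044 bp. Among them AT3G54363 had the highest enrichment, 5.37 in ethylene and 12.7 in air.

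In 11 cases an air region overlapped 2 ethylene regions, and in 15 an ethylene region overlapped 2 air regions. The first kind included ARLA1C, a small GTPase gene, the bZIP factor gene TGA3, emb1027, BAS1, which encodes a brassinosteroid-inactivating P450, AT3G60300 and OFP11. The second included AT3G26395, TPR14, AT1G50290, the poly(A)-binding protein gene PAB4, EXO70F1 and CXIP2. At PAB4 the ethylene region of 6.80 spanned an air region of 12.1.

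Kept summits lay just inside gene ends. Up to 200 bp inside a protein-coding gene were 57.4% of kept summits (55.4 to 59.2), against 40.1% of ethylene-only summits (36.3 to 44.0) and 43.9% of air-only summits (41.7 to 46.2). From 201 to 500 bp inside lay 14.9% of kept, 21.8% of ethylene-only and 18.7% of air-only summits. Up to 1000 bp outside lay 15.1% of kept, 23.04% of ethylene-only and 20.996% of air-only summits. Deeper than 500 bp inside lay 5.68% of kept, 7.21% of ethylene-only and 10.0% of air-only summits. These intervals treat regions as independent and hold no variation between samples.

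**Figure D2:**
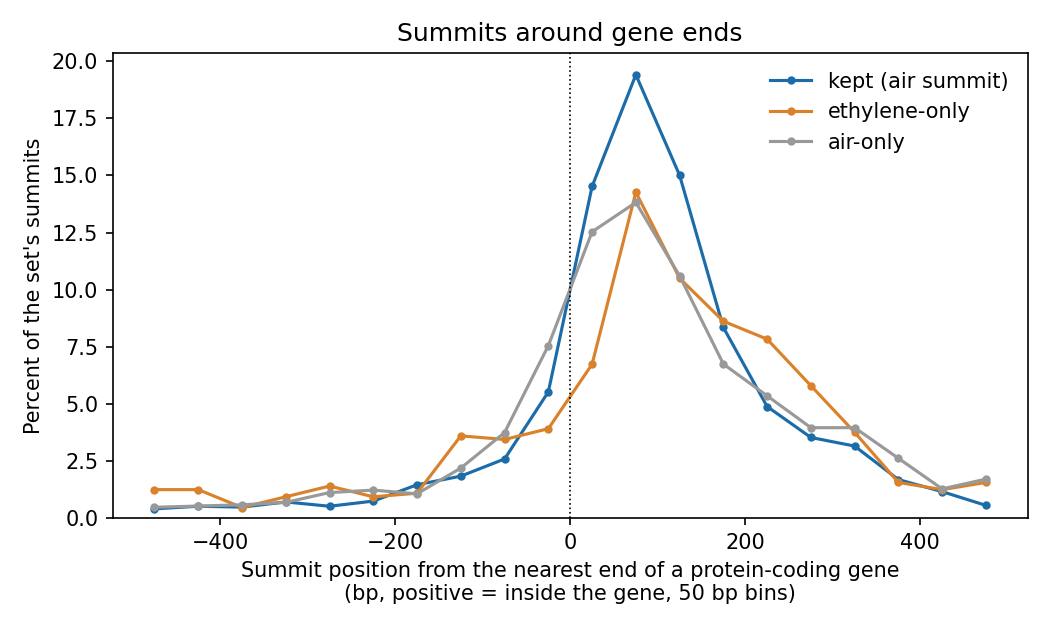
Percent of summits in 50 bp bins around the nearest end of a protein-coding gene (positive is inside) for kept, ethylene-only and air-only regions. The kept curve reaches 19.4% from 50 to 100 bp inside, where ethylene-only regions reach 14.3% and air-only regions 13.8%.

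The kept share was then set out by position within quartiles of air fold enrichment. Regions of a quartile were not matched on −log10 p, on which presence in a list depends, and the part of that was not tested. In the lowest quartile of air enrichment, 32.4% (28.4 to 36.5) of regions up to 200 bp inside a gene were kept, against 18.9% (12.6 to 26.7) of regions up to 1000 bp outside. In the quartiles above, the shares were 50.9% inside and 28.9% outside, then 74.9% and 57.1%, and at last 95.1% and 91.9%. From the lowest quartile up, regions over 500 bp inside a gene had 15.2%, 43.8%, 69.2% and 94.5%. Regions 201 to 500 bp inside had 22.6%, 47.0%, 74.5% and 95.8%. The intervals of both classes were apart from those up to 200 bp inside in the lowest quartile only. Between the 200 bp inside and the 1000 bp outside, the intervals were apart in the lower 3 quartiles and overlapped in the highest.

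**Figure D3:**
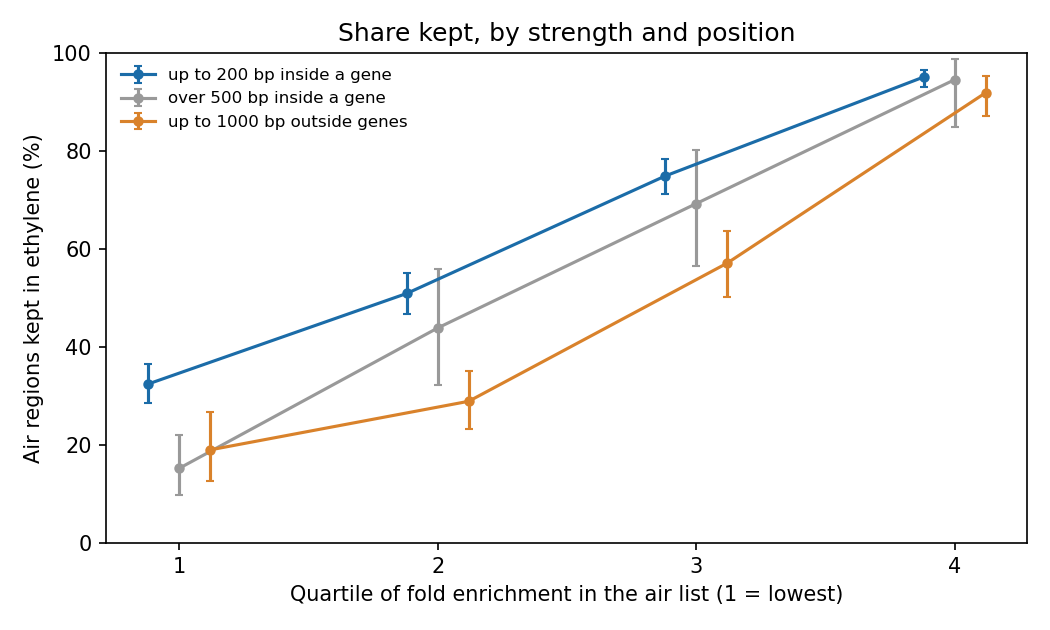
Percent of air regions kept in ethylene, by quartile of fold enrichment in the air list and by position, with exact 95% intervals. Regions up to 200 bp inside genes run from 32.4% to 95.1% and regions up to 1000 bp outside from 18.9% to 91.9%.

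In kept regions up to 500 bp inside a gene, the ethylene summit lay deeper in the gene than the air summit more often than the reverse. Among 1922 such regions it was deeper in 1304, or 67.8% (65.7 to 69.9), the air summit was deeper in 572, and 46 coincided. The median displacement was 10.5 bp (95% interval 9 to 12) toward the gene body, with median depths of 117 bp in ethylene and 106 bp in air. This was small beside the median region width of 246 bp. Both intervals treat regions as independent and hold no variation between samples. Whether the displacement would recur in other samples was not tested. At DCP2 the ethylene summit lay 28 bp deeper and at APD1 18 bp deeper, at GATB the summits coincided, and at AT1G57600 the air summit was the deeper by 2 bp.

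The displacement took the same direction at both kinds of gene end, those where the gene extends to higher and to lower coordinates. Its median was 10 bp where the gene extends to higher coordinates (988 regions) and 12 bp where it extends to lower (934 regions). It was 9 to 12 bp on each of the 5 chromosomes. In the highest air quartile it was 10 bp and in the lowest 9 bp (5 to 16). From 201 to 500 bp inside it was 8 bp, and over 500 bp inside 4 bp (−1 to 8). Outside genes it was 3.5 bp (1 to 7). When the end was assigned from the ethylene summit or midway between both summits, it was 12 bp in each case. Intervals on these subsets likewise hold no variation between samples. The length of sequenced fragments and the software's extension of reads are not given in the sources used here, and their part was not tested.

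**Figure D4:**
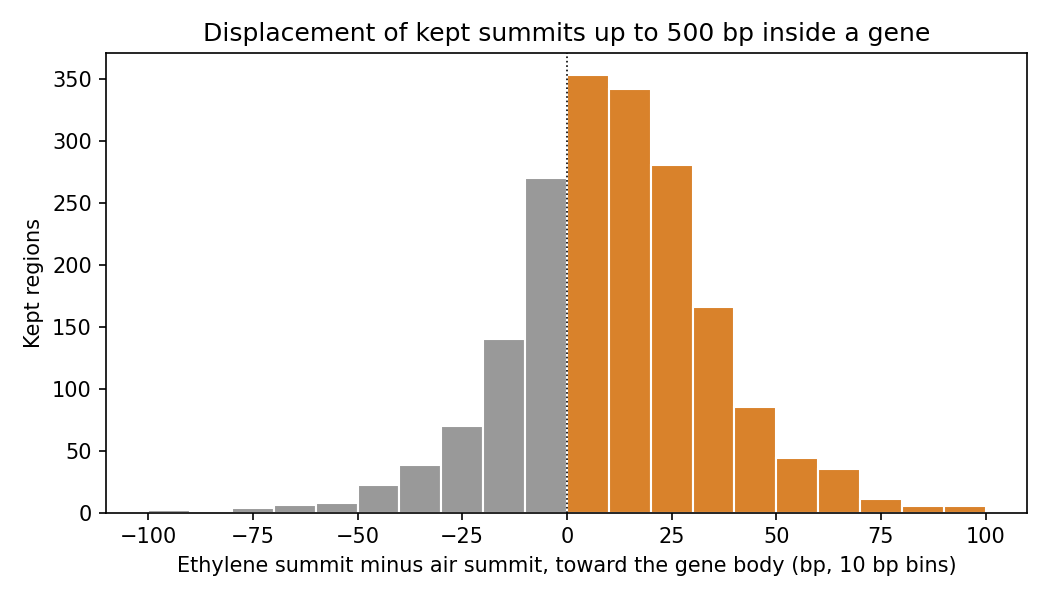
Number of kept regions by the displacement of the ethylene summit relative to the air summit, in 10 bp bins, for the 1922 regions up to 500 bp inside a gene (positive is toward the gene body, and the bin starting at 0 includes the 46 pairs that coincide). The bars to the right of 0 hold more regions than those to the left, and displacements beyond the axis, 24 toward the gene body and 12 toward its end, are not drawn.

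The depth of summits also differed between the sets. Inside genes up to 500 bp, the median depth was 146 bp for ethylene-only and 120 bp for air-only summits, against 106 bp for the air summits of kept regions. Outside genes up to 1000 bp, the median distance from the gene was 88 bp for kept, 168 bp for ethylene-only and 96 bp for air-only summits.

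The distance to the neighbouring gene was set beside that of all gene ends. The next gene lay a median of 942 bp beyond the end for kept summits, 1431 bp for ethylene-only and 1090 bp for air-only summits, against 650 bp over all 54878 gene ends. Within 500 bp it lay in 37.6% of kept, 29.5% of ethylene-only and 35.9% of air-only cases, and in 44.8% of all ends. In the window used to assign genes, 1194 kept summits had 2 genes, 1144 had 1, and 220 had none. An assigned gene is therefore a neighbour of the summit and not a shown target.

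Kept summits touched 3627 of 27444 protein-coding genes, or 13.2% (12.8 to 13.6). These genes had a median length of 2452 bp, against 2078 bp over all genes. The share differed with gene length, at 6.52% of genes up to 1146 bp long and 17.5% of genes of 3311 bp or more. Genes too short for 500 bp inside both ends have a narrower window, which enters the lowest class by definition. How much of the difference this makes was not tested. Genes with an air-only summit and no kept one also rose between these length classes, from 4.19% to 9.75%. Their median length was 2329.5 bp. A kept summit at each end was found in 117 genes. Most genes had 1 kept summit, 195 had 2 and 9 had 3. The genes with 3 that had the highest enrichment were AKRP, an ankyrin repeat protein gene of plastid development, AT5G24710, AT3G61800, AT3G61810 and LBD41, a LOB-domain factor gene known for its response to low oxygen. At LBD41 the ethylene enrichments were 2.46, 2.47 and 4.11 and the air enrichments 4.97, 7.32 and 9.54. The air summits of 4.97 and 9.54 lay 252 and 333 bp outside LBD41, the former inside another gene. At AKRP, summits lay 950 and 426 bp outside that gene and inside other genes. At AT5G24710, summits 388 and 891 bp outside lay in the RNA gene AT5G24735. Neighbours AT3G61800 and AT3G61810 shared 2 of their summits.

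Some kept summits were grouped. The densest stretch of 20000 bp, chosen for that density, was on chromosome 3 from 18499232 to 18516546. There 7 of 8 air summits were kept, 3 of them nearest to LBD38, a LOB-domain gene of nitrogen response. Stretches with all 6 of 6 air summits kept lay around CCR1, a gene of lignin synthesis, on chromosome 1 and around LBD41 and the sterol gene STE1 on chromosome 3. Over all kept regions, neighbouring summits were a median of 25372 bp apart. These stretches were named after their values were seen.

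Gene groups taken by name differed in how many members had a kept summit, and each count is to be read beside the 13.2% of all genes. Groups hold only genes matched by name, so a group need not be its whole family. Groups differ in gene length, and neighbours can share a summit. Intervals were wide. Of the 21 groups taken by name, that of ribosomal proteins lay wholly below the share of all genes and none lay wholly above it. Ribosomal protein genes had a median length of 1573 bp, and their interval takes in the 10.8% of all genes of 1147 to 1789 bp. Of the 2 short lists of ethylene pathway genes described further on, that of the receptors had an interval wholly above the share of all genes. It holds 5 genes chosen with earlier results at them known, so no conclusion is drawn from that interval.

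Among signalling groups the share ran from 11.4% to 22.4%. MAP kinase cascade genes had 11 of 49 (22.4%, 11.8 to 36.6). MKK6, a MAP kinase kinase gene of cell division, had enrichments of 6.29 in ethylene and 11.9 in air. Its summit lay 481 bp outside it and nearest to AT5G56590. MAPKKK9, MAP3KA and MAPKKK14 had 2.48 to 3.25 in ethylene and 6.95 to 8.43 in air. Calcium-dependent kinases, CIPK and CBL proteins had 8 of 70 (11.4%), among them CDPK1 with 4.04 in ethylene and 12.4 in air, CPK5, CBL1 and CBL3. Type 2C phosphatases had 3 of 14, with HAI1, a negative regulator of abscisic acid signalling, at 5.57 in ethylene and 14.2 in air. The HAI1 summit lay 736 bp outside that gene and 101 bp inside AT5G59210. Receptor-like kinases had 17 of 147 (11.6%), including SERK1, a coreceptor gene, at 2.68 in ethylene and 13.3 in air, with the summit 157 bp outside it and inside an annotated RNA gene.

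The bZIP, bHLH, MYB, NAC and homeobox factors had shares of 6.76% to 19.05%. The interval of each takes in the 13.2% of all genes. The bZIP factors had 12 of 63 (19.05%, 10.2 to 30.9), and a second region at TGA1 had 4.02 in ethylene and 14.8 in air. BZIP17, a factor of the stress response of the endoplasmic reticulum, had 4.22 in ethylene and 11.1 in air. The bHLH factors had 6 of 38 (15.8%), among them FBH1, FBH2 and FBH3, activators of the flowering gene CONSTANS, with FBH2 at 5.14 in ethylene and 12.1 in air. MYB factors had 14 of 139 (10.1%), NAC factors 8 of 101 (7.92%) and homeobox factors 5 of 74 (6.76%). Of the NAC genes, SOG1, the regulator of the DNA damage response, had 3.61 in ethylene and 7.53 in air. Of the homeobox genes, KNAT2 had 2.80 in ethylene and 6.97 in air.

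Few trihelix genes carry a family name in the table. Of 7 matched, GT2, ASIL1 and ASIL2 had a kept summit (42.9%, 9.90 to 81.6), with ethylene enrichments of 4.35, 2.86 and 2.28 and air enrichments of 7.54, 5.95 and 7.55. TCP factors had 3 of 22 (13.6%), led by AT5G23280 at 5.08 in ethylene and 15.7 in air.

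Among genes of RNA and protein synthesis, splicing factors had 7 of 24 (29.2%, 12.6 to 51.1). U2AF35B, a subunit gene of the factor that recognises the splice site at the intron's end, had 4.61 in ethylene and 12.5 in air, and RSZ21, SR34a and SR34b, genes of serine and arginine rich proteins, had 2.47 to 4.46 in ethylene and 6.98 to 8.29 in air. Before genes matched only by name were removed, the splicing count was 10 of 44 (22.7%). Translation initiation factors had 6 of 29 (20.7%, 7.99 to 39.7), with EIF3E at 4.37 in ethylene and 16.0 in air and EIF4B1 at 3.81 in ethylene and 14.3 in air. The EIF4B1 summit lay 324 bp outside that gene and 182 bp inside AT3G26395. Ribosomal proteins had 3 of 67 (4.48%, 0.933 to 12.5). They were RPL16A with 3.05 in ethylene and 11.1 in air, MRPL11, and RPS15AD, which shared its summit with the histone gene HTB11. The MRPL11 summit lay 318 bp outside that gene and 224 bp inside AT4G35500.

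Genes of protein turnover and chromatin gave small numbers. Proteasome subunits had 3 of 41 (7.32%, 1.54 to 19.9), and 9 of 63 (14.3%) before genes matched only by name were removed. PBC1, a core subunit gene, had 4.26 in ethylene and 13.9 in air. Ubiquitin-conjugating enzymes had 5 of 36 (13.9%), F-box proteins 3 of 31 (9.68%) and chaperones and heat shock factors 8 of 62 (12.9%). Histones had 4 of 24 (16.7%), with HTA8, an H2A-type histone gene, at 3.75 in ethylene and 12.3 in air. The HTA8 summit lay 640 bp outside that gene and nearest to AT2G38820. RAB GTPases had 9 of 54 (16.7%), with RABC2A at 4.15 in ethylene and 16.8 in air. Photosystem and antenna proteins had 5 of 62 (8.06%), with PSAG, a photosystem I subunit gene, at 4.61 in ethylene and 14.9 in air. The PSAG summit lay 469 bp outside that gene and 257 bp inside AT1G55675.

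**Figure D5:**
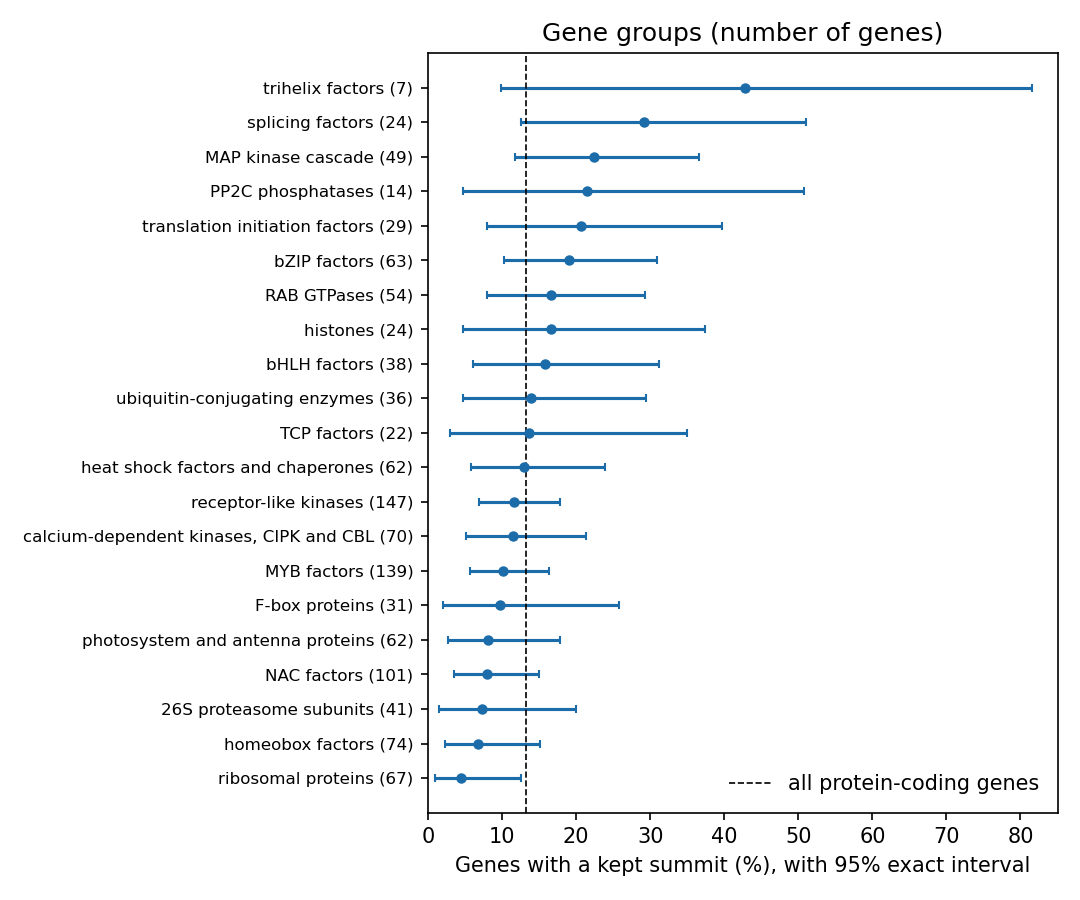
Percent of genes with a kept summit in 21 gene groups taken by name, with exact 95% intervals and the number of genes in brackets. The dashed line is the 13.2% of all protein-coding genes, which only the interval of ribosomal proteins does not reach.

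In the ethylene pathway, 3 of 5 receptor genes had a kept summit (60%, 95% interval 14.7 to 94.7), against 13.2% of all genes, namely ETR2, ETR1 and EIN4. This list was chosen with earlier results at these genes known, and its genes are long, with a median of 3330 bp. ETR2 stood 5th in ethylene (7.66) and at rank 322 in air (9.79). Below the receptors 3 of 9 genes had one (33.3%, 7.49 to 70.1), at EIN2, XRN4 and the locus AT3G11100, and the EIN2 summit lay in a neighbouring RNA gene. AT3G11100 was added to this list by its locus number and has no symbol in the gene table. Its local background was 5.34 times the lowest value of the list in ethylene and 6.31 times in air, and 5 times was reached by 83 of the 2659 kept regions in ethylene and 41 in air. The part of background at this locus was not tested.

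Some kept summits lay in annotated genes that do not encode proteins. Long noncoding RNA genes held 109, of which 61 were outside protein-coding genes. Genes annotated as other noncoding RNA held 23, all of them outside protein-coding genes. A kept summit lay within 106 of 3480 long noncoding RNA genes (3.05%, 2.50 to 3.67) and 19 of 221 other noncoding RNA genes (8.60%, 5.26 to 13.1), against 2081 of 27444 protein-coding genes (7.58%, 7.27 to 7.90). These shares count summits between the ends of a gene, a narrower window than that behind the 13.2%. At AT2G18735, such a gene, the enrichments were 6.76 in ethylene and 13.1 in air, and at AT1G09357, a long noncoding RNA gene, 4.24 in ethylene and 16.4 in air. At AT3G24927, a transcribed pseudogene, they were 4.53 in ethylene and 14.8 in air. These 3 were chosen after their values were seen. The ChIP signal marks the DNA and does not tell which overlapping gene it belongs to.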

How the data were processed

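Chromatin immunoprecipitation followed by sequencing was made in 8 libraries, 2 in each of 4 groups, and the deposited results used here are 2 peak lists. Per the submitters' processing notes, BWA aligned the reads to TAIR10 and MACS2 2.1.0.20150603 called the regions. Per the labels, both ChIP samples of a treatment share 1 list, which makes the calls joint. The rule behind the lists and the read totals are not given in the sources used here.

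The deposited fold enrichment is the authors' ratio, at a summit, of pile-up in the ChIP to the local background, after adding 1 to each. The −log10 p and −log10 q values were deposited as the peak caller gave them, and the deposited score was not used further. Pile-up and background were solved from fold enrichment and −log10 p. Of the forms of the Poisson tail tried on these lists, the one that placed pile-ups on whole fragments was used, and 100% of regions in each list then fell within 0.02 of a whole fragment. A fragment counted as 1 in the air list and as 0.602 in the ethylene list.

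Regions were kept when they shared at least 1 bp. Positions are counted from 1 in TAIR10. Gene ends and names came from the RefSeq table of TAIR10.1, which gave 27444 nuclear protein-coding genes without strand or sequence, so a transcription start was not told from an end. As a check of the positions, 55.2% of kept summits lay up to 200 bp inside the nearest gene end, and 10.0% to 10.3% after a shift of 10000 bp. A gene was counted at a summit lying from 1000 bp outside to 500 bp inside either end. Intervals on shares are exact (Clopper-Pearson, 95%), those on medians are 95% order-statistic intervals, and both cover counting over regions only. No test was made, because neither list has a value per sample. Work used Python 3.11.15, pandas 2.3.3 and scipy 1.17.1.

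The members and the gene lists were chosen with earlier results of these data known. The 21 gene groups are name patterns, and genes matched by name but belonging elsewhere were removed after the counts had been seen. The direction of the summit displacement, its division into 17 subsets or other settings, the fragment counts, the gap to the next gene, gene length, noncoding genes, clusters and the classes within quartiles were also added after the data were seen. Genes are named as the nearest protein-coding gene of the regions highest in both lists, of the regions with the largest rank differences, of the smallest overlaps and nearest air-only regions, of the widest regions and of regions that overlap more than 1 other. Up to 4 members per gene group with the highest kept air enrichment and the genes with the most kept summits are also named.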

Additional observations from a re-analysis of the deposited data

How the results depend on the processing

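The count of kept regions stayed within 1.5 times of 2659 under the 5 alternatives run, at 1900 to 2655. The lowest was with a −log10 q of at least 10 in both lists. That setting gave a median summit distance of 15 bp in place of 16 bp, and median enrichments of 3.21 in ethylene and 6.57 in air, in place of 2.89 and 5.91 over all 2659 pairs, by keeping stronger regions. Genes at kept summits numbered 2367 when each summit was given to the nearest gene end only, in place of 3627, by the construction of that setting. They were 2642 and 2746 under the other settings. The share up to 500 bp inside a gene was 72.3% to 73.4%. The inward displacement was 9 to 12 bp under 4 settings chosen after seeing the data. Removing false name matches, also done after the counts were seen, moved no gene group outside its interval.

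No paired analysis was possible because the lists pool the samples of a treatment and hold no separate values for them. Single samples could not be left out either. Motif alternatives were not run. Read totals are unknown, so absence from a list does not show that a region was unbound.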
